A study of Mus musculus with 20 samples.

Results

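The integrins and the proteins that tie them to the actin cytoskeleton were followed through a mouse model of breast cancer (BC) spread. The set holds 40 genes, 25 integrin chains and 15 cytoplasmic adhesion proteins, taken by symbol from the deposited table where values for the BC libraries stand beside the symbol. The table holds 38 of them, among 15465 named genes with BC values, and Itga11 and Ilk were not analysed here. All 38 entered the test, as did 14003 genes in all. The study sequenced RNA of bulk tissue from 20 libraries of pancreatic and breast cancer models, and the 8 BC libraries are used here. They are 4 BC lung metastases and 4 BC primary tumors. A lung metastasis and a primary tumor with the same mouse code in their titles are taken as 1 mouse, so each mouse gave 1 library to each group. All 8 are labelled 4T1 derived (4T1 is a mouse mammary carcinoma line of BALB/c origin), come from orthotopic tumors and were taken at 28 days, with no treatment in the labels. The labels give neither strain nor age of the mice, and 1 cell line stands behind every tumor. No separate library of healthy lung was used here.

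Integrins are transmembrane receptors made of 1 alpha and 1 beta chain, and the pair decides what is bound: collagen, laminin, proteins with an RGD motif such as fibronectin and osteopontin, or receptors on other cells. Talin and kindlin bind the tail of the beta chain and switch the receptor on; vinculin, parvins, paxillin, p130Cas, zyxin and filamin then link it to actin and to kinase signalling. Leukocytes use the beta2 and beta7 chains, platelets use the chain encoded by Itga2b, and epithelia rely on beta1, beta4, beta5 and beta6 chains. In lung, the alphaVbeta6 pair is known as an activator of latent TGF-beta in alveolar epithelium.

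Sequence upstream of the start is shown for the called genes (adjusted p under 0.05) that have an entry in the RefSeq promoter table of build GRCm38.p6, so that the genes discussed below can be located. That is not the build of the files (mm9), and the files gave no coordinates. Of the 38 genes with BC values 27 matched an entry, and the called genes Itgae and Itgb2 are named only. Each run gives the 120 bases before the start, 5′ to 3′ on the strand of the gene, and capitals mark GAGGAA or its reverse complement TTCCTC, a word bound by PU.1 and other ETS factors of blood cells.
Itga2b, chr11:102469884-102470003, minus strand: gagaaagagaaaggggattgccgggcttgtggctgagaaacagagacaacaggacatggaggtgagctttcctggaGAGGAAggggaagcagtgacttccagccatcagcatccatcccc
Itgb7, chr15:102231936-102232055, minus strand: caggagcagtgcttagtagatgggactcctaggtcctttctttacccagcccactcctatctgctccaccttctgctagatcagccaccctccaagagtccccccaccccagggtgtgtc
Itga8, chr2:12301945-12302064, minus strand: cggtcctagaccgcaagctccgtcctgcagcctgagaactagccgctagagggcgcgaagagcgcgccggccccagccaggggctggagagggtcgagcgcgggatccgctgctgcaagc
Itgb6 start nearer the 3′ end, chr2:60673694-60673813, minus strand: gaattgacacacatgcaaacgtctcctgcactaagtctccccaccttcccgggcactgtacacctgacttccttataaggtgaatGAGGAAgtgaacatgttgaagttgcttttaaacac
Itgb6 start nearer the 5′ end, chr2:60722604-60722723, minus strand: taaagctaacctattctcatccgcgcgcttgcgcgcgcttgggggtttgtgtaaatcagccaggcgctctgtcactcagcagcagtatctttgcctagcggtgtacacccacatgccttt
Itgb5, chr16:33829545-33829664, plus strand: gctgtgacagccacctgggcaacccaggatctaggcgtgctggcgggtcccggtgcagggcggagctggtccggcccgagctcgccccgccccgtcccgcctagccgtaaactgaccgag
The word stood in 2 of these 6 windows, those of Itga2b and of the Itgb6 start nearer the 3′ end, and in 11.6% of all 32851 promoter windows of 120 bases in the table. The GATA word AGATAA (either strand) was in 0 of the 6 windows and in 4.36% of all windows, and the RUNX word TGTGGT in 0 of the 6 and in 6.72%. The words do not overlap each other. Such a match is a description of letters only.

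Depth ran from 15447918 to 28995834 reads assigned to genes. The deposited values are read counts scaled to a nearly common total per library, called scaled reads here, and 1 read was worth 0.0337 to 0.0676 of them. Lung metastasis 3 was the shallowest library and stood apart: its median correlation with the others of its group was 0.882, against 0.954 to 0.961 for the other lung metastases and 0.955 to 0.975 for the primary tumors. It had the highest value of its group for 20 of the 38 genes and the lowest for 12. Lung epithelial markers were summed at 7492 to 34352 scaled reads in lung metastases, against 15.5 to 42.4 in primary tumors, with lung metastasis 3 highest, and 11 of 12 were called higher; Sftpc (surfactant protein C) averaged 5034 ± 2233 scaled reads in lung metastases and 1.41 ± 0.43 in primary tumors. The carcinoma keratin Krt8 was 225 to 1462 scaled reads in lung metastases, against 531 to 1321 in primary tumors. In bulk RNA, fewer cells of a type and less RNA per cell cannot be told apart.

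Across the set, 6 of the 38 genes were higher and 1 was lower in lung metastases than in primary tumors at an adjusted p under 0.05 (limma on log2(value + 1), Benjamini-Hochberg over all 14003 genes). Of all genes, 7.18% were called higher and 1.96% lower. The integrin share of higher calls was 6 of 24 chains, and all 14 cytoplasmic proteins were without a call. The groups did not overlap for 7 genes that were higher and 2 that were lower, against 10.4% and 7.56% of all genes. The median change of the 38 genes was 0.26 on the log2 scale, and that of all genes was -0.06. At an unadjusted p under 0.05 there were 12 of the 38 and 3225 of all genes. The genes called higher were chains known from blood cells (Itgb2, Itgb7, Itgae, Itga2b), from epithelia (Itgb6) and from mesenchyme (Itga8), and the gene called lower was Itgb5. Without lung metastasis 3 the fit called 8 of the 38, and without lung metastasis 2 it called 4.

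**Figure D1:**
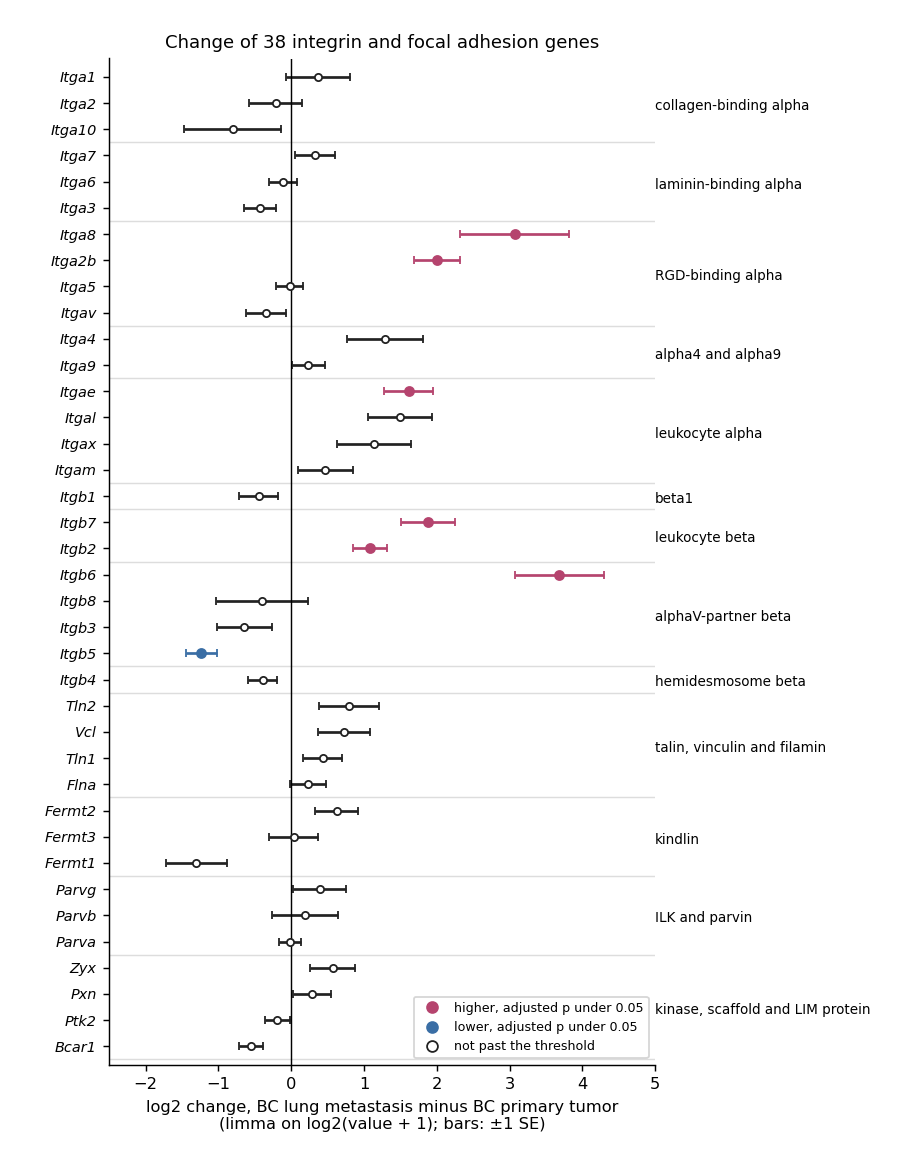
Change of each of the 38 genes on the log2 scale, lung metastasis minus primary tumor, grouped by role. Points are limma estimates with bars of 1 SE; filled points passed an adjusted p under 0.05. The called genes lie between -1.23 (Itgb5) and 3.68 (Itgb6).

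Both leukocyte beta chains and 1 of the 4 leukocyte alpha chains were called higher in lung metastases. Itgb2 encodes the beta2 chain (CD18), the partner of the alphaL, alphaM and alphaX chains. It measured 267, 274, 398 and 220 scaled reads in lung metastases of mice 1 to 4, against 140, 108, 189 and 110 in the primary tumors. The groups did not overlap, and within each mouse the lung metastasis was the higher. The change was 1.08 on the log2 scale (SE 0.24, adjusted p = 0.0167), with means of 290 ± 76.2 in lung metastases and 137 ± 38.1 in primary tumors (SD, n = 4 each, as for the other means). Leaving out lung metastasis 1, lung metastasis 2, primary tumor 2 or primary tumor 4 took the adjusted p to 0.0578, 0.0534, 0.0506 and 0.070, and without lung metastasis 3 it was 0.0145.

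Itgb7, the beta7 chain of lymphocyte homing and of intraepithelial lymphocytes, measured 44.2, 23.3, 43.7 and 22.2 scaled reads in lung metastases and 6.72, 15.9, 5.16 and 6.80 in primary tumors. Primary tumor 2 was the highest of its group and still lay below every lung metastasis. The change was 1.88 (SE 0.37, adjusted p = 0.010) and held in all 17 alternatives, with 1.73 (adjusted p = 0.0156) without lung metastasis 3. Itgae encodes the alphaE chain (CD103), the partner of beta7 on intraepithelial T cells and some dendritic cells. It measured 8.07, 9.43, 8.18 and 8.23 scaled reads in lung metastases, against 3.89, 1.22, 1.08 and 3.03 in primary tumors. The 4 lung metastases lay close together and apart from the primary tumors. Its change was 1.61 (SE 0.34, adjusted p = 0.0136), and the adjusted p was 0.0537 without lung metastasis 2 and 0.0187 without lung metastasis 3.

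Itgal, the alphaL chain of LFA-1, measured 106, 61.8, 290 and 58.8 scaled reads in lung metastases and 33.7, 31.0, 31.6 and 49.5 in primary tumors. Every lung metastasis lay above every primary tumor, but lung metastasis 3 was far above the rest and the change of 1.499 (SE 0.44) missed the threshold (adjusted p = 0.0611). Without lung metastasis 3 it was 1.00 with an adjusted p of 0.0236, and without lung metastasis 4 it was 1.76 with an adjusted p of 0.0401. Itgam, the alphaM chain of the complement receptor Mac-1 on neutrophils and macrophages, averaged 313 ± 186 scaled reads in lung metastases and 216 ± 102 in primary tumors with overlap between the groups (change 0.47, adjusted p = 0.491, and 0.12 without lung metastasis 3). Its annotated exons share 68.7% of their bases with an overlapping gene model on the same strand, Gm49368. Itgax (alphaX, dendritic cells and alveolar macrophages) averaged 37.4 ± 12.9 in lung metastases and 19.6 ± 13.5 in primary tumors (change 1.14, adjusted p = 0.212). Itga4, the alpha4 chain that binds VCAM-1, averaged 45.6 ± 46.6 in lung metastases and 13.8 ± 5.33 in primary tumors (change 1.28, adjusted p = 0.170) with 115 scaled reads in lung metastasis 3. Its change was 0.70 without that library, and DESeq2 called it higher (1.80, adjusted p = 0.0233). Itga9, its close relative, averaged 36.5 ± 7.16 in lung metastases and 31.0 ± 6.89 in primary tumors (change 0.23).

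Markers of the blood cells known to carry these chains differed too. Neutrophil markers summed to 8247 to 32795 scaled reads in lung metastases, against 401 to 2835 in primary tumors, and 12 of 14 were called higher; S100a8 averaged 5307 scaled reads in lung metastases and 193 in primary tumors. Macrophage and monocyte markers summed to 1377 to 3436 in lung metastases, against 3055 to 7693 in primary tumors, with 1 of 12 called higher and 2 lower. T and NK cell markers summed to 42.2 to 110 in lung metastases, against 14.5 to 52.2 in primary tumors, and 2 of 13 were called higher. Dendritic cell markers summed to 36.6 to 94.2 in lung metastases, against 21.6 to 30.2 in primary tumors, and 2 of 7 were called higher. Lung metastasis 3 had both the highest neutrophil sum (32795) and the highest Itgb2 (398). Primary tumor 2 had the highest neutrophil sum of its group (2835, of which Lcn2 was 1482, S100a9 539 and S100a8 456). Its macrophage and monocyte sum, at 3055, was the lowest of the primary tumors. Its Itgb2, at 108, was the lowest of the 8 libraries, near the 110 of primary tumor 4. The part of these cells in the leukocyte integrin changes was not tested.

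**Figure D2:**
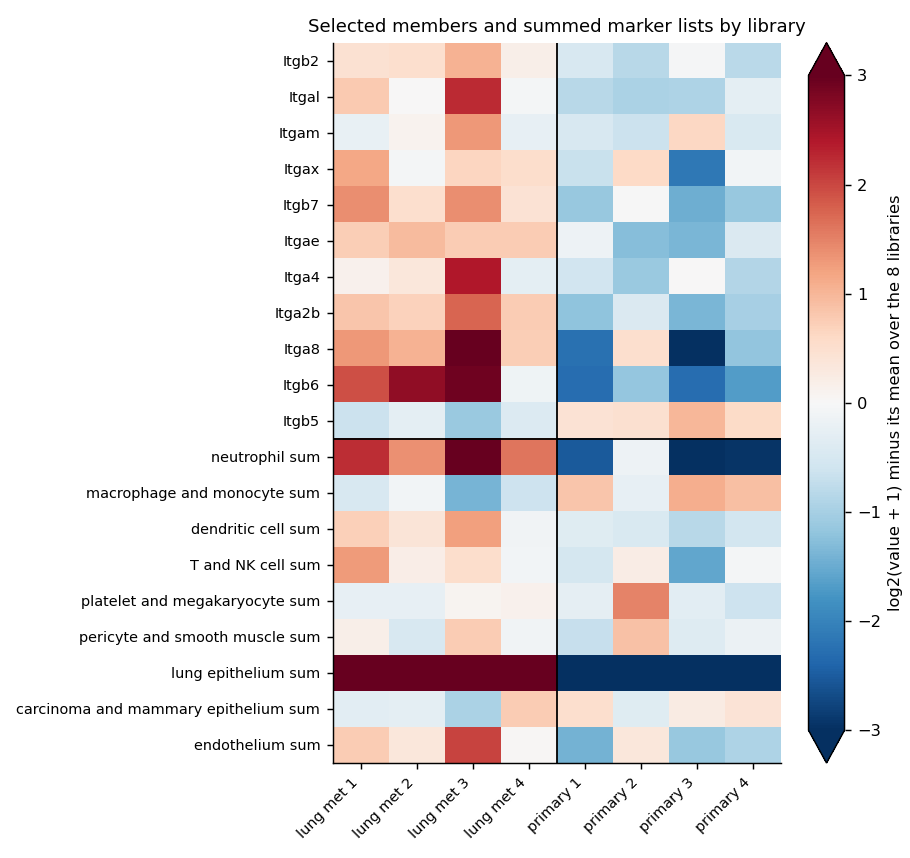
Values of 11 chains (upper rows) and of summed marker lists (lower rows) in each library, as log2(value + 1) minus the row mean over the 8 libraries; lung metastases stand left of the line and primary tumors right. Itgb2 was 220 to 398 scaled reads in lung metastases, against 108 to 189 in primary tumors, while the macrophage and monocyte sum was lower in most lung metastases.

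Itga2b encodes the alphaIIb chain of the platelet fibrinogen receptor. It measured 19.8, 17.9, 38.3 and 18.9 scaled reads in lung metastases, against 4.09, 7.69, 3.54 and 4.90 in primary tumors. The groups did not overlap. The change was 2.00 (SE 0.32, adjusted p = 0.00334), held in all 17 alternatives, and was 1.76 (adjusted p = 0.0031) without lung metastasis 3. Its partner Itgb3, which also pairs with alphaV, was not called. It averaged 34.1 ± 13.1 in lung metastases and 57.2 ± 31.1 in primary tumors (change -0.64, adjusted p = 0.348), and the ratio of their scaled reads, Itgb3 to Itga2b and not corrected for length, was 1.45 ± 0.22 in lung metastases and 10.8 ± 2.36 in primary tumors and did not overlap between the groups. Platelet and megakaryocyte markers summed to 53.0 to 69.4 scaled reads in lung metastases, against 41.0 to 178 in primary tumors. Of these, 2 of 7 tested were called higher (Gp5 and Clec1b), and Pf4 averaged 31.8 in lung metastases and 73.5 in primary tumors. Gp5 and Clec1b were at most 0.318 in any primary tumor. They met the filter on low values (a value of 1 in 4 or more libraries) only through the lung metastases. The part of these cells was not tested.

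Itga8, the alpha8 chain of smooth muscle, pericytes and alveolar interstitial fibroblasts, binds nephronectin and osteopontin. It measured 35.3, 29.1, 121 and 23.5 scaled reads in lung metastases, against 2.11, 19.8, 0.573 and 5.49 in primary tumors. The groups did not overlap, but the primary tumor of mouse 2 (19.8) came close to the lung metastasis of mouse 4 (23.5). The change was 3.07 (SE 0.75, adjusted p = 0.0282), 2.56 (adjusted p = 0.0437) without lung metastasis 3. With mouse as a replicate block the adjusted p was 0.0566 and in edgeR 0.107, and it was 0.0809, 0.0669, 0.0913, 0.0724 and 0.0682 without lung metastasis 1, lung metastasis 2, primary tumor 1, primary tumor 3 and primary tumor 4. Pericyte and smooth muscle markers summed to 267 to 625 scaled reads in lung metastases, against 229 to 683 in primary tumors, with 2 of 12 called higher and 1 lower. Of 12 fibroblast and matrix markers, 2 were called higher (Dcn and Tcf21) and 4 lower (Fap, Postn, Thy1 and Lrrc15). Tcf21 measured 22.0, 15.5, 36.8 and 11.6 in lung metastases of mice 1 to 4, against at most 0.0394 in primary tumors. It met the filter on low values only through the lung metastases. The part of these cells was not tested. An antisense gene, E030013I19Rik, covers 5.05% of the exonic bases of Itga8 and the kit is not described as marking strand.

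Of the alphaV partners, Itgb6 was called higher and Itgb5 lower. Itgb6, the beta6 chain of epithelia, measured 17.6, 29.5, 35.5 and 3.40 scaled reads in lung metastases and 0, 1.18, 0 and 0.528 in primary tumors. Every lung metastasis was above every primary tumor, and the lung metastasis of mouse 4 was far below the others. The change was 3.68 (SE 0.61, adjusted p = 0.00422), with 3.33 (adjusted p = 0.00591) without lung metastasis 3. Among the primary tumors only that of mouse 2 reached a value of 1, so Itgb6 met the filter on low values through the lung metastases. It was past the threshold in the 16 alternatives that tested it, and the filter of 5 left it out. With a pseudocount of 5 the change was 2.07, with one of 0.1 it was 5.74, and it was 5.67 in edgeR and 5.70 in DESeq2, so its size depends on how values near 0 are treated. Lung epithelial markers, 11 of 12 called higher, summed to 19427, 9783, 34352 and 7492 scaled reads in lung metastases of mice 1 to 4, against 15.5 to 42.4 in primary tumors. Their sum and Itgb6 were both highest in lung metastasis 3 and lowest in lung metastasis 4, whereas lung metastasis 1 had the higher sum and the lower Itgb6 when set beside lung metastasis 2. Of these sums, Scgb1a1 alone was 13234 in lung metastasis 1 and 2144 in lung metastasis 2. Scgb3a2 and Foxj1 were also higher in lung metastasis 1 than in lung metastasis 2. Sftpc measured 3957, 5014, 8152 and 3014 and Ager 443, 582, 989 and 360 in mice 1 to 4, both ranked as Itgb6 was. The part of lung epithelial cells was not tested.

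Itgb5, the beta5 chain of the alphaVbeta5 vitronectin receptor, was the 1 gene of the set called lower. It measured 145, 185, 105 and 171 scaled reads in lung metastases, against 307, 317, 454 and 340 in primary tumors. The groups did not overlap and all 4 mice had less in the lung metastasis. The mean was 151 ± 35.3 in lung metastases and 354 ± 67.8 in primary tumors, a change of -1.23 (SE 0.22, adjusted p = 0.00528), past the threshold in all 17 alternatives and -1.07 (adjusted p = 0.00214) without lung metastasis 3. The alphaV chain gene Itgav averaged 169 ± 67.6 in lung metastases and 201 ± 10.9 in primary tumors (change -0.34, adjusted p = 0.495, and -0.06 without lung metastasis 3). The ratio of scaled reads of Itgb5 to Itgav, not corrected for length, was 0.9503 ± 0.19 in lung metastases and 1.77 ± 0.392 in primary tumors, and that of Itgb5 to Itgb1 was 0.157 ± 0.0107 in lung metastases and 0.275 ± 0.0513 in primary tumors, both without overlap between the groups. Carcinoma epithelial markers summed to 1059 to 3438 scaled reads in lung metastases, against 1590 to 2882 in primary tumors, with 1 of 10 called higher and 1 lower. The higher one was Krt19, also on the mesothelial list (mean 123 in lung metastases and 14.1 in primary tumors). The lower one was Cldn4 (mean 20.1 in lung metastases and 114 in primary tumors). The list does not measure carcinoma content alone, and the part of that content was not tested. Itgb8, another alphaV partner, averaged 7.15 ± 4.95 in lung metastases and 8.15 ± 4.81 in primary tumors (change -0.40). Without lung metastasis 3 its change turned to 0.28. Itga5, the alpha5 fibronectin receptor chain, averaged 70.6 ± 9.73 in lung metastases and 72.2 ± 15.0 in primary tumors (change -0.02, and 0.04 without lung metastasis 3).

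**Figure D3:**
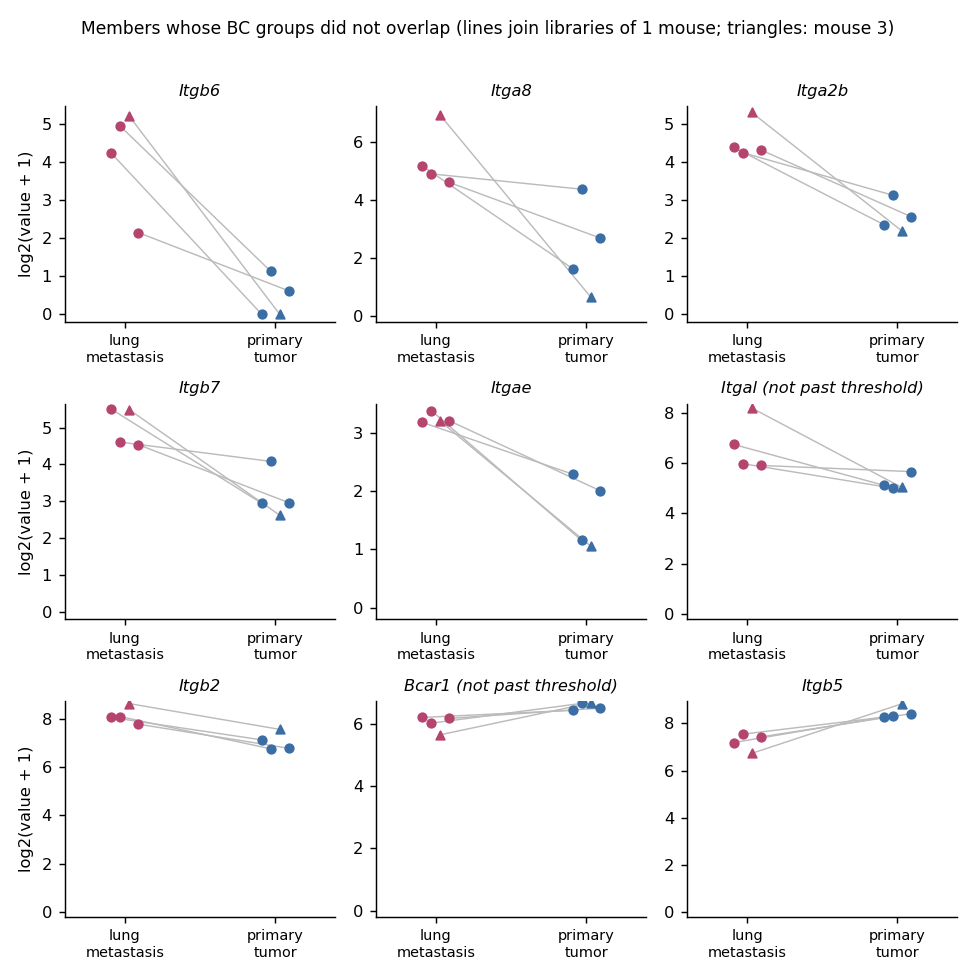
Values of the 9 genes whose groups did not overlap, as log2(value + 1), with lung metastasis left and primary tumor right; lines join the 2 libraries of a mouse and triangles mark mouse 3. Itgal and Bcar1 did not pass the threshold. Itgb6 was at 0 in 2 primary tumors.

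No laminin- or collagen-binding chain was called, nor Itgb1 or Itgb4. Of all genes, 7.18% were called higher and 1.96% lower, so with so few chains the lack of calls is no result about them. Itga3, the alpha3 chain of epithelial laminin receptors, averaged 586 ± 111.5 scaled reads in lung metastases and 782 ± 108 in primary tumors (change -0.43, adjusted p = 0.274), lowest in lung metastasis 3 at 444. Itga6, which pairs with beta4 in hemidesmosomes, averaged 178 ± 40.2 in lung metastases and 190 ± 14.2 in primary tumors (change -0.12) and changed sign to 0.05 without lung metastasis 3, while Itgb4 averaged 130 ± 22.6 in lung metastases and 170.5 ± 30.04 in primary tumors (change -0.39, adjusted p = 0.254). Itga7, a muscle laminin receptor chain, averaged 19.8 ± 3.25 in lung metastases and 16.1 ± 5.45 in primary tumors (change 0.32). Of the collagen receptor chains, Itga1 averaged 34.3 ± 19.2 in lung metastases and 25.7 ± 13.4 in primary tumors (change 0.37), Itga2 averaged 8.55 ± 4.01 in lung metastases and 9.40 ± 2.37 in primary tumors (change -0.21), and Itga10 averaged 4.14 ± 4.38 in lung metastases and 6.07 ± 3.42 in primary tumors (change -0.81) with 0 in lung metastasis 3. Itgb1, the shared beta chain of these receptors, averaged 979 ± 282 in lung metastases and 1293 ± 112 in primary tumors (change -0.45, adjusted p = 0.356), from 613 in lung metastasis 3 to 1277 in lung metastasis 2. Without lung metastasis 3 the change was 0.06 for Itga1, -0.18 for Itga10, -0.24 for Itgb1 and -0.26 for Itgb4. Exons of Itga10 share 33.5% of their bases with Gm42957 on the same strand.

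Levels can be compared between chains per kilobase of annotated exon (GRCm38 gene models, not the build of the files). In lung metastases the order of beta chains was Itgb1 at 257 ± 73.8, Itgb2 at 97.5 ± 25.7, Itgb5 at 44.7 ± 10.4 and Itgb4 at 20.3 ± 3.54, and in primary tumors Itgb1 at 339 ± 29.3, Itgb5 at 104 ± 20.0, Itgb2 at 46.0 ± 12.8 and Itgb4 at 26.7 ± 4.71. Itgb2 stood in the second place in lung metastases and Itgb5 in primary tumors, and in both groups the first 3 chains did not overlap with their neighbours. Itgb4 overlapped in lung metastases with Itgb7, Itgb7 with Itgb3, and so on down to Itgb8, whereas in primary tumors Itgb4 lay above Itgb3, which overlapped with Itgb7. As a share of summed beta message, Itgb2 was 22.8% ± 9.01 in lung metastases and 8.64% ± 2.05 in primary tumors, Itgb5 10.0% ± 1.25 in lung metastases and 19.6% ± 2.62 in primary tumors, Itgb1 57.2% ± 9.86 in lung metastases and 64.0% ± 3.21 in primary tumors. Among alpha chains Itga3, Itgam, Itga6 and Itgav led in both groups, with Itga3 at 111 ± 21.2 in lung metastases and 149 ± 20.6 in primary tumors per kilobase, and the 15 lung metastasis neighbours overlapped except Itgae, which lay above Itga2.

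**Figure D4:**
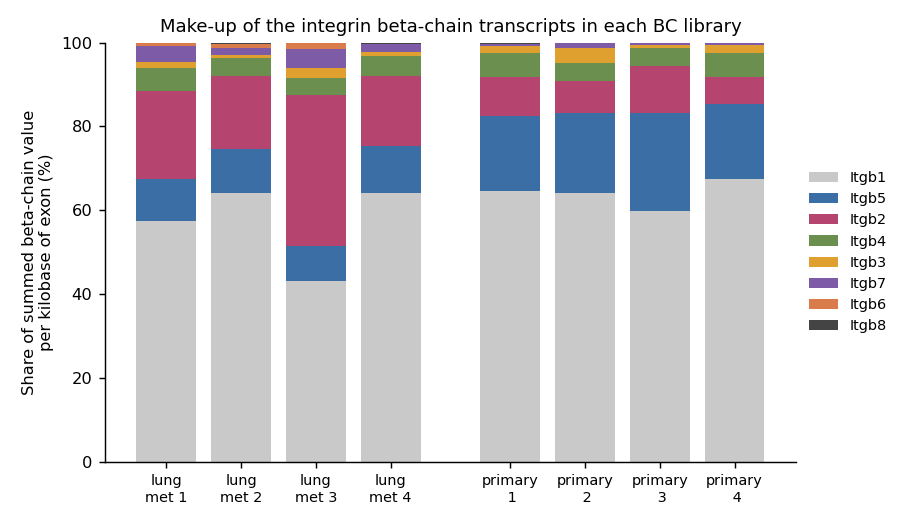
Share of each beta chain in the summed beta-chain value per kilobase of exon, in percent, for each library; lung metastases stand left and primary tumors right. Itgb2 was 16.6% to 36.0% in lung metastases and 6.57% to 11.2% in primary tumors, and Itgb5 was 8.31% to 11.3% in lung metastases and 17.8% to 23.4% in primary tumors.

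No cytoplasmic adhesion gene passed the threshold, and 2 of the 14 had an unadjusted p under 0.05 in limma. Of all genes, 7.18% were called higher and 1.96% lower, and 3225 of 14003 had an unadjusted p under 0.05. With 14 genes, these counts are no result about the cytoplasmic proteins. Bcar1, the scaffold p130Cas, came nearest to the threshold. It measured 73.3, 64.4, 49.6 and 71.8 scaled reads in lung metastases and 86.2, 101, 102 and 90.5 in primary tumors, without overlap (change -0.55, SE 0.17, adjusted p = 0.0702). It was called lower with array weights (adjusted p = 0.0282) and in DESeq2 (adjusted p = 0.0207). Fermt1, the kindlin of epithelia, averaged 21.0 ± 10.6 in lung metastases and 50.3 ± 17.5 in primary tumors (change -1.30, SE 0.42, adjusted p = 0.0834), with primary tumor 2 at 25.6 inside the range of the lung metastases. It was called lower without that library (adjusted p = 0.0426), with array weights (0.0136) and in DESeq2 (0.0354). Its widely used relative Fermt2 averaged 99.0 ± 30.6 in lung metastases and 64.7 ± 24.1 in primary tumors (change 0.62), and Fermt3, the kindlin of blood cells, averaged 64.1 ± 28.0 in lung metastases and 58.6 ± 14.1 in primary tumors (change 0.04), below zero at -0.20 without lung metastasis 3.

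Tln1, Tln2, Vcl, Flna, Zyx and Pxn were each highest in lung metastasis 3 among the lung metastases. Tln1 (talin-1) averaged 466 ± 197 scaled reads in lung metastases and 327 ± 51.35 in primary tumors (change 0.44, adjusted p = 0.363), with 756 in lung metastasis 3. Tln2 averaged 22.4 ± 13.9 in lung metastases and 12.0 ± 6.05 in primary tumors (change 0.80), Vcl (vinculin) 66.2 ± 39.0 in lung metastases and 35.5 ± 7.55 in primary tumors (change 0.73), and Flna (filamin A) 924 ± 302 in lung metastases and 757 ± 22.6 in primary tumors (change 0.24). Zyx (zyxin) averaged 331 ± 194 in lung metastases and 203 ± 31.9 in primary tumors (change 0.57), with 622 in lung metastasis 3 and 220 to 249 in the other 3. Pxn (paxillin) averaged 206 ± 95.9 in lung metastases and 158 ± 11.8 in primary tumors (change 0.28), and Ptk2 (focal adhesion kinase) 129 ± 24.1 in lung metastases and 146 ± 13.9 in primary tumors (change -0.19). The parvins, which tie integrin-linked kinase to actin, averaged 124 ± 15.9 in lung metastases and 125 ± 4.68 in primary tumors for Parva (change -0.02), 36.9 ± 28.1 in lung metastases and 27.4 ± 9.29 in primary tumors for Parvb (change 0.19, and -0.25 without lung metastasis 3), and 22.9 ± 9.88 in lung metastases and 16.1 ± 4.14 in primary tumors for Parvg (change 0.39). Without lung metastasis 3 the change was 0.18 for Tln1, 0.44 for Tln2, 0.39 for Vcl, 0.03 for Flna, 0.22 for Zyx, 0.00060 for Pxn, -0.08 for Ptk2, -0.07 for Parva and 0.19 for Parvg. Exons of Vcl share 25.5% of their bases with Ap3m1 on the opposite strand.

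Ligands and counter-receptors of integrins changed in both directions. Of 50 listed, 48 were in the table and 45 tested (Vtn, Fgb and Fgg were under the filter on low values), of which 5 were called higher and 5 lower, against 7.18% and 1.96% of all genes, and the median change was 0.10. Of the 5 higher genes, Vwf (the clotting protein von Willebrand factor) averaged 146 ± 174 scaled reads in lung metastases and 12.1 ± 8.62 in primary tumors (change 3.02, adjusted p = 0.0195), with 406 in lung metastasis 3. Icam2, a counter-receptor of LFA-1, averaged 41.4 ± 26.8 in lung metastases and 7.23 ± 5.40 in primary tumors (change 2.41, adjusted p = 0.0137), and Icam1, the counter-receptor of LFA-1 and Mac-1, averaged 71.4 ± 30.3 in lung metastases and 19.3 ± 9.58 in primary tumors (change 1.82, adjusted p = 0.0163). L1cam, an adhesion receptor that binds RGD integrins, averaged 23.5 ± 12.9 in lung metastases and 3.69 ± 1.21 in primary tumors (change 2.30, adjusted p = 0.00295) and Fbn1 (fibrillin-1) 70.5 ± 26.6 in lung metastases and 28.3 ± 7.92 in primary tumors (change 1.25, adjusted p = 0.0254). Endothelial markers, Vwf among them, summed to 805 to 3201 in lung metastases, against 296 to 1007 in primary tumors, 7 of 12 called higher, and their part was not tested.

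Of the lower genes, Spp1 (osteopontin, an RGD ligand) measured 2224, 2018, 289 and 3651 scaled reads in lung metastases and 9030, 7828, 9986 and 8721 in primary tumors (change -2.58, adjusted p = 0.0424). Postn (periostin, ligand of alphaV integrins) averaged 59.0 ± 22.3 in lung metastases and 301 ± 147 in primary tumors (change -2.18, adjusted p = 0.0161), Tnc (tenascin-C) 29.9 ± 20.2 in lung metastases and 117 ± 42.5 in primary tumors (change -2.12, adjusted p = 0.0225), and the laminin chain Lama5 305 ± 30.7 in lung metastases and 471 ± 27.6 in primary tumors (change -0.63, adjusted p = 0.0360). Of the ligands named here, only L1cam passed in all 17 alternatives. Leaving out lung metastasis 1, lung metastasis 2, primary tumor 1 or primary tumor 4 gave 2 calls in the ligand list each, leaving out primary tumor 3 gave 3, and without lung metastasis 3 the list had 10 calls. The block for mouse ended the calls of Spp1 (adjusted p = 0.0586) and Lama5 (adjusted p = 0.0949).

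**Figure D5:**
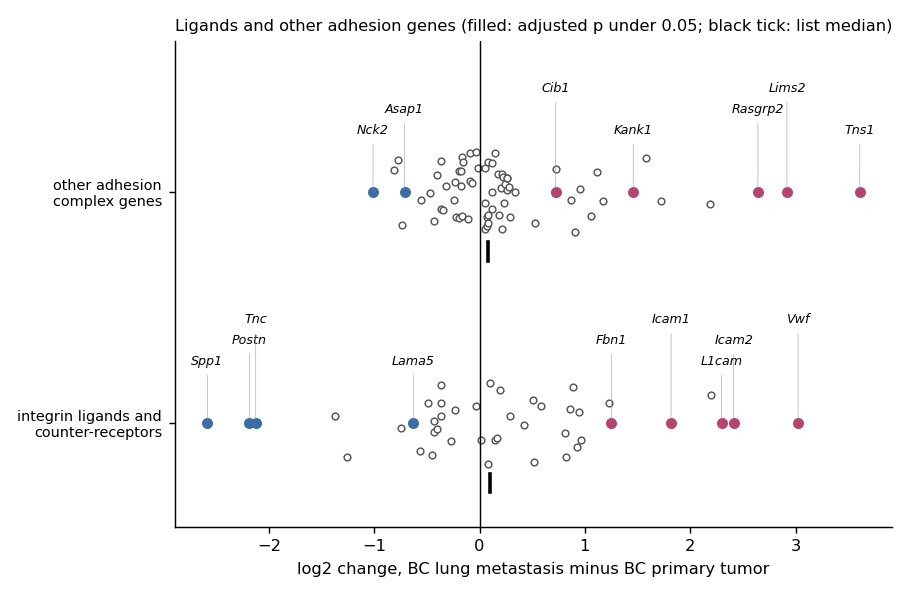
Change on the log2 scale, lung metastasis minus primary tumor, of the tested integrin ligands and counter-receptors, 1 of them not drawn, and of 72 other adhesion complex genes. Filled points passed an adjusted p under 0.05, and the black tick is the list median (0.10 and 0.08).

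Among 73 other adhesion complex genes, 72 were tested, 5 were called higher and 2 lower, with a median change of 0.08. These are 6.94% and 2.78% of the list, near the 7.18% and 1.96% of all genes, so the counts are no result about the list. Tns1 (tensin-1, which binds beta tails and actin) averaged 487 ± 639 in lung metastases and 23.8 ± 12.6 in primary tumors (change 3.61, adjusted p = 0.00826), with 1443 in lung metastasis 3 and 101 to 214 in the other 3. Lims2 (PINCH-2) averaged 17.4 ± 15.4 in lung metastases and 1.044 ± 0.589 in primary tumors (change 2.92, adjusted p = 0.00334). Rasgrp2 (the platelet and leukocyte activator of Rap1) averaged 70.6 ± 88.8 in lung metastases and 6.25 ± 1.82 in primary tumors (change 2.64, adjusted p = 0.0240), with 203 in lung metastasis 3 and 21.3 to 36.3 in the other 3. The change of Rasgrp2 without that library was 1.91 (adjusted p = 0.00275). Kank1 averaged 29.98 ± 9.79 in lung metastases and 10.7 ± 5.29 in primary tumors (change 1.46, adjusted p = 0.0332), and Cib1, which binds the alphaIIb tail, averaged 55.4 ± 13.3 in lung metastases and 32.5 ± 0.651 in primary tumors (change 0.72, adjusted p = 0.0403). Nck2, an adaptor, averaged 46.0 ± 11.0 in lung metastases and 91.5 ± 4.55 in primary tumors (change -1.01, adjusted p = 0.0106), and Asap1, an Arf GTPase activator at adhesions, 130 ± 7.26 in lung metastases and 218 ± 50.7 in primary tumors (change -0.71, adjusted p = 0.0376). Tns1, Lims2 and Nck2 passed in all 17 alternatives, Rasgrp2 in 12 of 16, and Kank1, Cib1 and Asap1 in 10 of 17 each. Without lung metastasis 1, lung metastasis 2, primary tumor 1 or primary tumor 3 the list had 4 calls, without primary tumor 4 it had 3, and without lung metastasis 3 it had 6; mouse as a block ended those of Cib1 (adjusted p = 0.0763) and Asap1 (adjusted p = 0.065).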

How the data were processed

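Bulk tissue of 4 BC lung metastases and 4 BC primary tumors was used; per the labels' protocols, RNA came from an RNeasy column and TruSeq RNA libraries were sequenced. The genome build was mm9, per the submitters' processing notes; aligner, counter and annotation: not given in the sources used here. The authors deposited 1 table of scaled signal values per gene: library totals of the 8 BC columns were 962401 to 1044330. Dividing by the smallest step of a column gave whole reads for 100% of values (to within 0.05 reads), so the reads could be recovered. The 12 pancreatic columns were not used, since they do not follow the gene column.

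Genes that reached a value of 1 in 4 or more of the 8 libraries (14003) were tested with limma 3.58.1 (R 4.3.3), with an intensity trend, on log2(value + 1), with Benjamini-Hochberg adjustment over all of them. For low genes this scale gives too small a fold change. Itgb6, Lims2 and markers such as Gp5 and Clec1b would not have met the filter on low values without the lung metastases. The lung epithelial markers Sftpb, Sftpa1, Sftpd, Scgb3a2, Lamp3 and Nkx2-1 and the dendritic cell marker Xcr1 were under 1 in every primary tumor. The filter thus fixed the direction of their change. edgeR 4.0.16 (quasi-likelihood) and DESeq2 1.42.0 ran on the recovered reads as alternatives, and calls are made at an adjusted p under 0.05. With 4 libraries against 4, n is small and a p-value reflects the spread between mice. Libraries with the same mouse code in their titles are taken as 1 mouse, which is where the pairing comes from. Over all genes tested, the correlations of their deviations from the group means were 0.0962, -0.151, 0.035 and 0.00655, so no pairing showed across genes as a whole. Such a correlation cannot settle pairing for a single gene. With mouse as a block the SE went from 0.24 to 0.17 for Itgb2 and from 0.22 to 0.25 for Itgb5. Genes were matched by symbol or identifier: Nrros as Lrrc33, Tns2 as Tenc1 and Ajuba as Jub.

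The gene set and the marker and pathway lists were chosen with earlier results of these data known. By the naming rule, every gene of the set is given, called or non-overlapping ones in every library, and up to 8 called genes in each direction from each pathway list; 1 called ligand is not reported here. Marker sums add the scaled reads of a list. Exon lengths and overlaps come from GENCODE gene models of GRCm38.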

Additional observations from a re-analysis of the deposited data

Results flagged for a closer look

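In 10 of 76 groups of 4 libraries, 1 library lay so far from the rest that its gap to them, over the whole range, passed the critical value of Dixon's test; chance gives about 1 in 20 groups, or 3.8 of 76. Lung metastasis 3 was the far library in 5 of the 10: Itga8 (121 scaled reads, the others 23.5 to 35.3), Itga2b (38.3, the others 17.9 to 19.8), Itga4 (115, the others 17.0 to 27.1), Itgam (588, the others 199 to 257) and Zyx (622, the others 220 to 249). In lung metastasis 2, Itgae stood at 9.43 against 8.07 to 8.23. Among primary tumors, Itgb7 was 15.9 in primary tumor 2 (the others 5.16 to 6.80), Itgam 368 in primary tumor 3 (153 to 173), Itgal 49.5 in primary tumor 4 (31.0 to 33.7) and Itga6 168 in primary tumor 1 (195 to 198).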

How the results depend on the processing

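Results were recomputed under up to 17 alternatives. Over all genes 1279 were called; array weights gave 2283, DESeq2 1985 and edgeR 1050, and leaving out single libraries gave 563 to 1155. In the set 7 were called; DESeq2 gave 11 and leave-one-out 4 to 8. The ligand list had 10 calls, and 2 to 10 with single libraries left out. The other adhesion list had 7, with 15 under array weights, 12 in DESeq2 and 3 to 10 with single libraries left out. With mouse as a replicate block, 1112 genes, 6 of the set, 8 ligands and 6 other adhesion genes were called; among the 38, Itga8 alone lost its call under the block (adjusted p = 0.0566). Itga5 reversed to 0.0197 under median-ratio scaling, 0.0021 with array weights and 0.0089 in DESeq2, Itgb8 to 0.16 and Fermt3 to -0.0239 with array weights, and Parva to 0.0223 under median-ratio scaling, 0.0122 in edgeR and 0.0353 in DESeq2. With single libraries left out, values ran from -0.44 to 0.10 for Itga2, -0.20 to 0.0451 for Itga6, -0.12 to 0.11 for Itga5, -0.75 to 0.28 for Itgb8, -0.20 to 0.37 for Fermt3, -0.0704 to 0.0519 for Parva and -0.25 to 0.58 for Parvb. None of these 7 was called in any setting, and the cause was not tested. Of the other values of the set, 601 kept direction and side of the threshold, 12 lost a call and 10 gained one. Itgb6 and Itga10 were not tested under the filter of 5, and Rasgrp2 had no adjusted p in DESeq2. The median of all genes stayed between -0.09 and 0.01.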

Other observations

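The 4 mice differed in how far their 2 libraries lay apart. For Itga8 the log2 difference, lung metastasis minus primary tumor of the same mouse on the log2(value + 1) scale, was 3.55, 0.53, 6.28 and 1.92 in mice 1 to 4, and for Itga2b 2.03, 1.12, 3.11 and 1.75. For Itgb2 it was 0.93, 1.33, 1.07 and 1.00 and for Itgb5 it was -1.08, -0.77, -2.10 and -0.99. Mouse 3 had the widest difference for Itga8, Itga2b and Itgb5, and not for Itgb2.

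Marker lists of other cells differed as well. Erythroid markers summed to 1969 to 9627 scaled reads in lung metastases, against 51.9 to 167 in primary tumors, and all 5 tested were called higher. B and plasma cell markers summed to 24.5 to 100.3 in lung metastases, against 2.04 to 5.64 in primary tumors, and all 3 tested were called higher. Mesothelial markers summed to 257 to 626 in lung metastases, against 68.4 to 165 in primary tumors, and all 8 were called higher. Of these lists, Pax5 (B cell) and the mesothelial Upk3b, Upk1b, Wt1, Lrrn4, Nkain4 and Rspo1 were under 1 in every primary tumor. They met the filter on low values only through the lung metastases, which fixed the direction of their change. Fibroblast and matrix markers overlapped, with 1616 to 2682 in lung metastases, against 841 to 2923 in primary tumors, and 2 of 12 were called higher and 4 lower.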
